A study of Mus musculus with 2 samples.

Results

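The genes described are 10 members of bone morphogenetic protein (BMP) signaling and its feedback: the Id genes Id1, Id2, Id3 and Id4, the inhibitory Smad genes Smad6 and Smad7, and the ligand genes Bmp2, Bmp4, Bmp6 and Inhba. They were taken by name, by pairing each Ensembl identifier of the deposited tables with its symbol, and make up 10 of 55573 listed genes. The tissue was mesenteric artery, the resistance vessel of the gut, of wild-type C57BL/6 mice aged 10 weeks, and its mRNA was sequenced. One library came from arteries kept in 5 mM K+ (control) and the other from arteries depolarized in 60 mM K+, labelled with 60 min each, and every library pooled tissue of 2 mice. The study asked which genes membrane depolarization of arterial muscle induces. With 1 library per condition no difference has a replicate check, so no test of the conditions was possible and the intervals below cover counting error only. The supplementary methods describe control tissue cut from the distal arteries after incubation without perfusion, before the rest was perfused by pump with 60 mM K+. The main text of the paper instead describes perfusion with either solution. Position along the artery, perfusion and time in solution therefore cannot be told apart from K+ here. The control library held 10480918 counted reads and that of the depolarized arteries 11289598.

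BMP ligands bring together type I and type II receptor kinases, which phosphorylate Smad1, Smad5 and Smad9; these join Smad4 and bind DNA. The Id genes are among the earliest genes switched on by this route, and their proteins hold basic helix-loop-helix (bHLH) transcription factors in pairs that cannot bind DNA. Smad6 and Smad7 are induced as well and feed back on the receptors, Smad6 mainly on BMP signals and Smad7 also on TGF-β and activin. Inhba encodes the βA subunit of activin A, which signals through Smad2 and Smad3. In arteries the endothelium is a strong site of this signaling, through the receptor encoded by Acvrl1 and the co-receptor endoglin.

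As the setting of the genes that were higher in 60 mM K+, the bases before their start sites are shown from RefSeq promoter windows (build GRCm38.p6), located on mm9, the build named in the study's methods, by exact match. Of the 10 members, 7 had a window that was matched (Id2, Id3, Id4, Smad6, Bmp4, Bmp6 and Inhba). No window was at hand for Id1, Smad7 and Bmp2, so no match was tried for them. Each sequence holds the 250 bases before the RefSeq start on the strand of the gene, and distances are counted from that start. Capitals mark the GC-rich Smad element GGCGCC, the short form TGACG of the cAMP response element (CRE), the TATA box TATAAA and the CCAAT box, in either orientation; both strands were searched, and TGACG lies within the full CRE. None of these marked motifs is in the window of Smad6. The windows lie at chr12:25780958-25781207 (minus strand) for Id2, chr13:48356235-48356484 (plus strand) for Id4 and chr9:63869867-63870116 (minus strand) for Smad6. The RefSeq start of Id4 lies upstream of the mm9 annotation's start of that gene, given further on.
Id2: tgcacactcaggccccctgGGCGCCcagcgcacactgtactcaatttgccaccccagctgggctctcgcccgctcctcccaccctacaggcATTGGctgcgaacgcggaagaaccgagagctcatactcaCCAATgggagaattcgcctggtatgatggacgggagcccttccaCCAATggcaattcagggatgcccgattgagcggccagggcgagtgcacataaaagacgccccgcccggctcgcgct
Id4: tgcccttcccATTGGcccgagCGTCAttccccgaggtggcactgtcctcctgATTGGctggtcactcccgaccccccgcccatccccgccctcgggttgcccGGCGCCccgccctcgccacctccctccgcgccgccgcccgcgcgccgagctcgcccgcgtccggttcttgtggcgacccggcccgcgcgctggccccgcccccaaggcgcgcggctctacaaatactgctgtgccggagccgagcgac
Smad6: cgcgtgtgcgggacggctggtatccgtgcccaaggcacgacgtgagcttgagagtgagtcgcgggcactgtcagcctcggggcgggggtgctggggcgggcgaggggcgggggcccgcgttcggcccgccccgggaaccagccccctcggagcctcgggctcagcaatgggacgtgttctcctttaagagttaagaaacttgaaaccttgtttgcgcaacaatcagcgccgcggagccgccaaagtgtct

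The window of Id3 overlaps an exon of that gene in the mm9 annotation, as does the window of Bmp6. Only 25 bases of the Id3 window with its TGACG match are therefore shown, at chr4:135699557-135699581 on the plus strand. The match (reading CGTCA) is in capitals.
Id3: ctgtcctcggCGTCAgaccagccta

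GGCGCC was found in 2 of the 7 windows, 231 bases before the start of Id2 and 148 bases before that of Id4, and in 9.54% of 27018 RefSeq promoter windows of the same length. TGACG was found in Id3 at 170 bases and in Id4 at 229 bases before the start, 2 of 7 members against 17.9% of all windows, and the full CRE TGACGTCA in 0 of 7 against 1.62%. The short Smad box core GTCT was present in 6 of 7 member windows and in 83.0% of all windows. CCAAT was found in 2 of 7 windows (34.5% of all), with 3 copies before Id2 and 2 before Id4, and the E-box CANNTG, the site of bHLH proteins, in 3 of 7 (66.1% of all), in Id2, Bmp4 and Bmp6. TATAAA was found only in Inhba among the 7 (13.0% of all), and Inhba had the lowest GC content of them, 43.2%, compared with 75.6% for Id4 and a median of 52.0% over all windows. These matches describe letters in these windows and say nothing of which factor binds them.

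Levels were compared between genes in FPKM, the deposited read number per kilobase of gene and per 1000000 counted reads. In the control library Id3 was the most abundant member at 525 FPKM, followed by Id1 at 229.4 FPKM and Id2 at 229.2 FPKM, whose counting intervals overlapped. Bmp6 at 79.5 FPKM and Bmp4 at 76.0 FPKM came next with overlapping intervals, then Smad7 at 61.8 FPKM and Smad6 at 59.4 FPKM, again overlapping. Inhba at 34.4 FPKM lay below these, and Id4 at 18.3 FPKM and Bmp2 at 17.6 FPKM were lowest and not separated by counting error. In the depolarized library the order began again with Id3 at 1221 FPKM, Id1 at 425 FPKM and Id2 at 264 FPKM. Smad7 at 105 FPKM and Smad6 at 91.9 FPKM now stood above Bmp4 at 76.1 FPKM and Bmp6 at 70.5 FPKM, whose intervals overlapped, and Inhba at 30.6, Id4 at 23.2 and Bmp2 at 13.9 FPKM followed. Among genes with at least 10 reads over both libraries, 1.05% reached the FPKM of Id3 in 5 mM K+ and 0.364% did so in 60 mM K+. Bmp2, the lowest member, was reached by 37.5% and 40.0% of these genes.

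**Figure D1:**
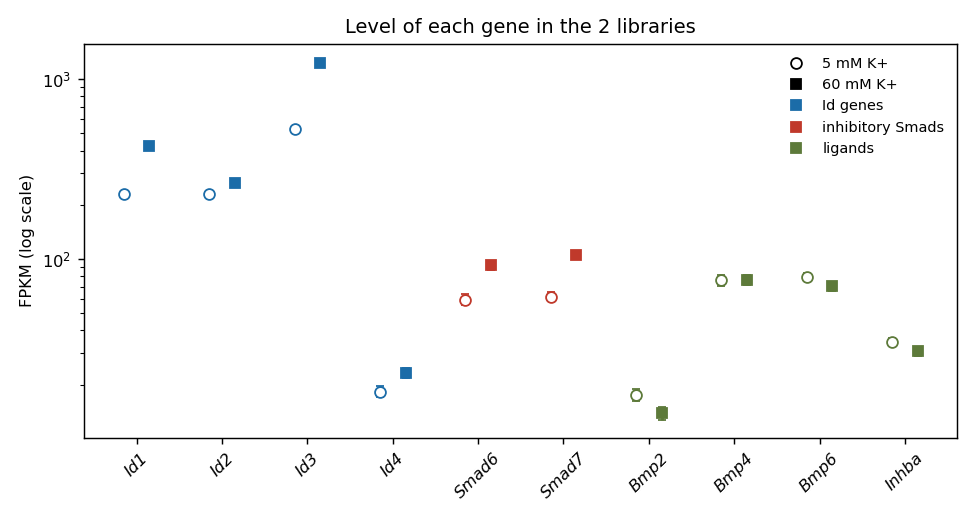
Level of each member in FPKM (log axis) in the 5 mM K+ library (open circles) and the 60 mM K+ library (filled squares), with 95% Poisson counting intervals, most of them smaller than the symbols. Id3 goes from 525 to 1221 FPKM and Id1 from 229 to 425 FPKM, while Bmp4 stays at 76 FPKM in both libraries.

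The Id genes and the inhibitory Smad genes had more reads in 60 mM K+ and the ligand genes had about as many in both libraries. Differences are given as log2(fold-change) of 60 mM K+ over 5 mM K+ after TMM scaling (edgeR's trimmed mean of M-values), each with an exact 95% counting interval. Total-count scaling, on which the FPKM values rest, gives values lower by 0.21 for every gene. A gene was called past the fold when its log2(fold-change) lay above 1 or below -1, the fold used in the study. The study's own calls also required a corrected q-value below a threshold, which was not applied here. Over all genes the numbers of calls therefore differ from the study's. The study's list of called genes holds Id1 and Id3, both up-regulated, and no other member. Gdf15, Gdf6, Sost, Smad3, Tgif1, Snai1 and Twist2, described below as past the fold, are not on that list. Of the 10 members, 2 were called higher, Id1 and Id3, and 0 were called lower; among all 14829 genes with at least 10 reads, all 10 members included, 5.54% were called higher and 5.86% lower. With total-count scaling 601 of these genes were called higher and 1285 lower, in place of 822 and 869. The counting interval lay above 0 for 7 of 10 members (4 Id genes, both inhibitory Smads and Bmp4) and below 0 for 0 of 10. The shares of all genes with at least 10 reads were 25.0% and 20.3%. Such intervals narrow with more reads, and each member had at least 1211 reads, so these shares are not of genes at like depth. The share of such intervals at like depth was not computed, for the members or for the lists below. Bmp4 was at 0.002 with total-count scaling. The median log2(fold-change) was 0.82 for the 4 Id genes, 0.91 for the 2 inhibitory Smads and 0.04 for the 4 ligand genes, beside a median of -0.0047 over all genes.

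**Figure D2:**
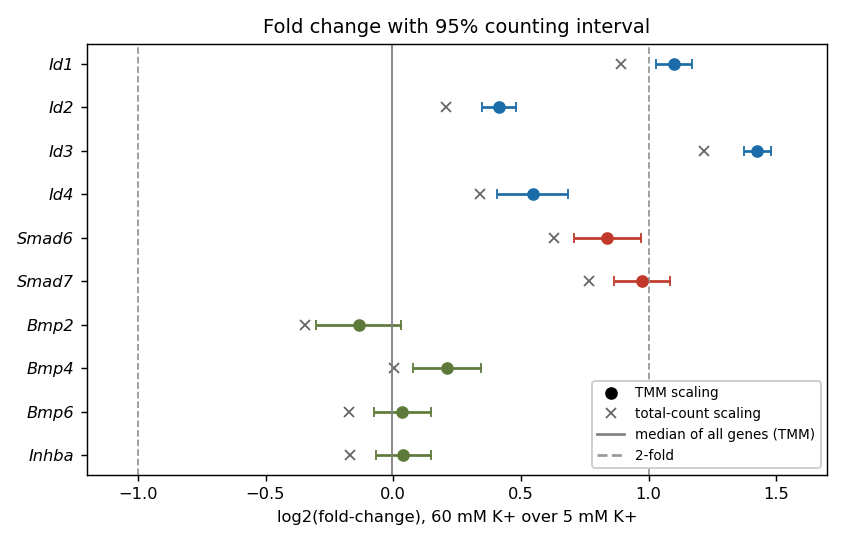
Points give log2(fold-change) of each member with TMM scaling and bars the 95% counting interval; crosses give total-count scaling and dashed lines a 2-fold difference. Id3 (1.43) and Id1 (1.10) lie above 2-fold with TMM and only Id3 (1.22) does with total counts.

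Id3 (ENSMUSG00000007872, mm9 chromosome 4, 135699412 to 135701670) had 4207 reads in control and 10533 in depolarized arteries, the largest number of any member. This gave a log2(fold-change) of 1.43 (1.37 to 1.48), a 2.69-fold higher level, and 2.81% of all genes had a value as high. Id1 (ENSMUSG00000042745, chromosome 2, 152561987 to 152563146) had 2517 and 5024 reads, a log2(fold-change) of 1.10 (1.03 to 1.17) or 2.14-fold. With total-count scaling Id1 fell short of the fold, at 0.89, and Id3 at 1.22 did not. Id3 and Id1 encode small proteins found in growing endothelium and vascular muscle.

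Id2 and Id4 differed less between the libraries. Id2 (ENSMUSG00000020644, chromosome 12, 25778666 to 25780957), whose protein is also widely made outside vessels, had 3361 and 4175 reads, a log2(fold-change) of 0.41 (0.35 to 0.48). Id4 (ENSMUSG00000021379, chromosome 13, 48356796 to 48359405) had 739 and 1006 reads, a log2(fold-change) of 0.55 (0.41 to 0.69). Id4 shares exon sequence with the long noncoding RNA gene A330033J07Rik on the other strand; whether strand was used in counting is not given, so its reads are uncertain. Neither gene reached the fold under any scaling tried.

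The makeup of the family differed between the libraries by more than counting error, and shares do not depend on library scaling. Reads of the 4 Id genes together numbered 10824 in 5 mM K+ and 20738 in 60 mM K+. Id3 took 38.9% of them (95% exact binomial interval 37.9 to 39.8) in 5 mM K+ and 50.8% (50.1 to 51.5) in 60 mM K+. The share of Id2 was 31.1% (30.2 to 31.9) and 20.1% (19.6 to 20.7), and that of Id4 was 6.83% (6.36 to 7.32) and 4.85% (4.56 to 5.15). Id1 had 23.3% (22.5 to 24.1) and 24.2% (23.6 to 24.8), with intervals that overlapped. The log2(fold-change) of Id2 minus that of Id3 was -1.01 (counting interval of the difference -1.09 to -0.93), that of Id1 minus Id3 was -0.33 (-0.41 to -0.24) and that of Id2 minus Id4 was -0.13 (-0.28 to 0.02). By counting error alone Id3 therefore differed from the other Id genes, and Id2 and Id4 were not separated.

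**Figure D3:**
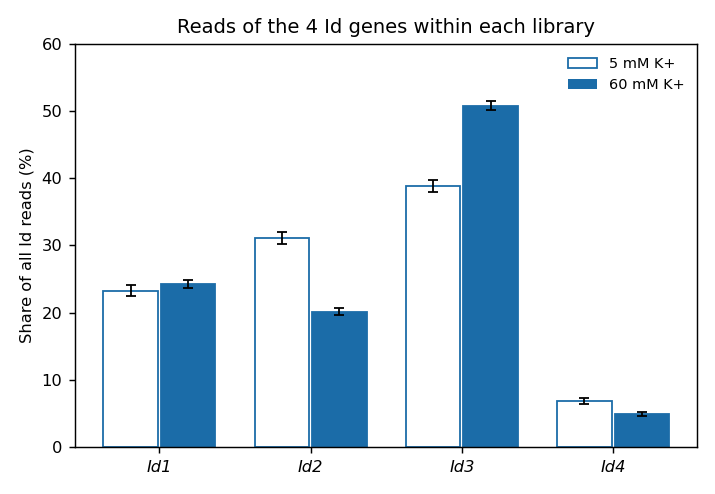
Share of all Id reads (percent) taken by each Id gene in the 5 mM K+ library (open bars) and the 60 mM K+ library (filled bars), with 95% exact binomial intervals. Id3 holds 38.9% and 50.8%, and Id2 31.1% and 20.1%.

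The inhibitory Smads stood just under the fold and close to each other. Smad6 (ENSMUSG00000036867, chromosome 9, 63800953 to 63869866) had 760 reads in 5 mM K+ and 1266 in 60 mM K+, a log2(fold-change) of 0.84 (0.71 to 0.97). Smad7 (ENSMUSG00000025880, chromosome 18, 75527183 to 75555589) had 1051 and 1926 reads, a log2(fold-change) of 0.98 (0.87 to 1.09), so that its interval reached across the fold. Values as high were found in 7.35% of all genes for Smad6 and in 5.84% for Smad7. Smad6 made up 42.0% (39.7 to 44.3) of the reads of the pair in 5 mM K+ and 39.7% (38.0 to 41.4) in 60 mM K+. Their log2(fold-change) values differed by -0.14 for Smad6 minus Smad7 (-0.31 to 0.03), which counting error does not separate. Smad7 and Id1 were not separated either (Id1 minus Smad7, 0.12, -0.01 to 0.25), whereas Id3 minus Smad7 was 0.45 (0.33 to 0.57).

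None of the 4 ligand genes was past the fold. Bmp2 (ENSMUSG00000027358, chromosome 2, 133377895 to 133388621), which encodes a bone-inducing ligand also made by endothelium, had 655 reads in 5 mM K+ and 556 in 60 mM K+, a log2(fold-change) of -0.14 (-0.30 to 0.03). Bmp4 (ENSMUSG00000021835, chromosome 14, 47003195 to 47010344), the closest relative of Bmp2, had 890 and 960 reads, a log2(fold-change) of 0.21 (0.08 to 0.34) that was 0.002 with total-count scaling. Bmp6 (ENSMUSG00000039004, chromosome 13, 38436995 to 38592183), a ligand known for its part in iron control, had 1349 and 1289 reads, a log2(fold-change) of 0.04 (-0.08 to 0.15). Inhba (ENSMUSG00000041324, chromosome 13, 16103684 to 16119044) had 1427 and 1367 reads, a log2(fold-change) of 0.04 (-0.07 to 0.15). With total-count scaling Bmp6 and Inhba had values of -0.17 each, so that no direction is given for them. Bmp2 minus Bmp4 was -0.35 (-0.56 to -0.14), and this difference is the same under every library scaling. Exon sequence is shared with Gm15217 for Bmp4 and with Txndc5 for Bmp6, each on the opposite strand, which makes these reads uncertain.

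The members were also placed among genes of like depth. Among 3444 genes with at least as many reads over both libraries as Bmp2, the member with the fewest, 1.45% had a log2(fold-change) as high as Id3, 3.05% as high as Id1, 4.18% as high as Smad7 and 5.60% as high as Smad6. The same shares were 12.3% for Id4 and 20.9% for Id2, and 41.8% for Bmp4, 63.0% for Inhba, 63.4% for Bmp6 and 82.0% for Bmp2. Of the pairs of a ligand with an Id or inhibitory Smad gene, the narrowest gap was that of Id2 minus Bmp4, 0.20 (0.06 to 0.35), and the widest was that of Id3 minus Bmp2, 1.56 (1.39 to 1.73).

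**Figure D4:**
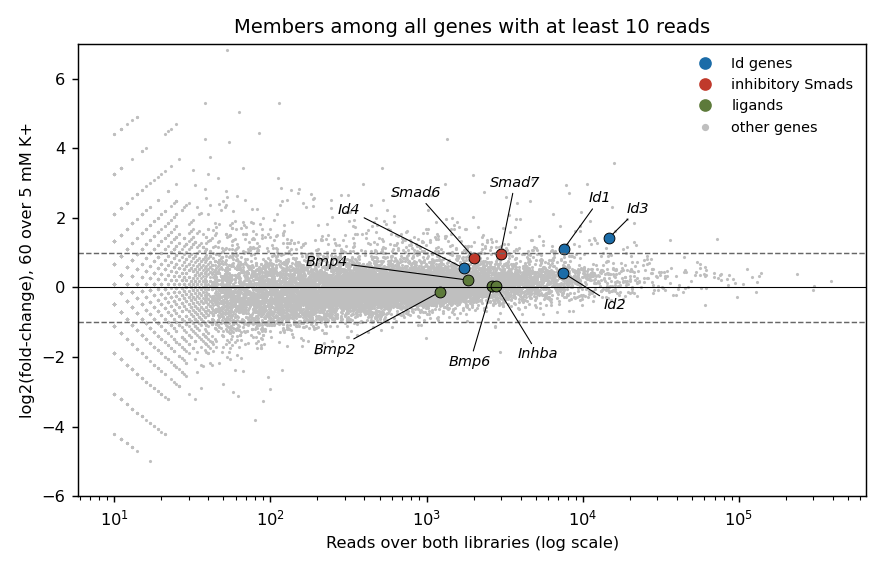
Each gray point is a gene with at least 10 reads, placed by its reads over both libraries (log axis) and its log2(fold-change); a library with 0 reads was given 0.5 reads, and dashed lines mark 2-fold. The 10 members lie between 1211 and 14740 reads, with Id1 and Id3 above the upper line.

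The other ligand genes of the family were taken from a list of 29, of which 28 were in the tables and 16 had at least 10 reads. Tgfb3, with the most reads, had 8034 and 8387 reads (log2(fold-change) 0.16), Gdf10 had 2817 and 2191 reads (-0.26) and Tgfb1 had 763 and 1207 reads (0.76, counting interval 0.63 to 0.90). Past the fold, 3 of these 16 were higher and 2 lower, beside 5.54% and 5.86% of all genes with at least 10 reads. With a minimum of 50 reads, 1 was higher and 1 lower. These were Gdf15, a stress-induced ligand, with 183 and 473 reads (1.47, 1.22 to 1.73), and Gdf6 with 36 and 14 reads (-1.26, -2.27 to -0.34). The others past the fold rested on few reads, Bmp7 with 3 and 9, Gdf9 with 8 and 15 and Gdf7 with 9 and 2, and their intervals held 0; they are named after their values were seen. Gdf2, which encodes the circulating ligand BMP9, had 5 reads in each library, and Bmp10 had 0 in both, a count that allows up to 3 reads.

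Of 17 receptors and co-receptors, 15 had at least 10 reads and 0 were past the fold in either direction. Among all genes with at least 10 reads, 5.54% were called higher and 5.86% lower. Eng, which encodes endoglin, had 3098 and 3698 reads (log2(fold-change) 0.36, 0.29 to 0.43), and Acvrl1 had 1736 and 2532 reads (0.65, 0.56 to 0.73). Bmpr2, the type II BMP receptor, had 1966 and 1879 reads (0.04, -0.06 to 0.13). Intervals lay above 0 for 7 genes and below 0 for 3 genes, beside 25.0% and 20.3% of all genes with at least 10 reads. The median of the list was 0.09.

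Among 21 extracellular antagonists and modulators, 16 had at least 10 reads. Past the fold, 2 of these were higher and 1 lower, beside 5.54% and 5.86% of all genes with at least 10 reads. Crim1 (8189 and 6239 reads, log2(fold-change) -0.29) and Fstl1 (7094 and 6251 reads, -0.08) had the most reads. Sost, which encodes sclerostin, was past the fold with 51 and 115 reads (1.27, 0.79 to 1.78). Nog, the gene of the BMP antagonist noggin, had 0 reads in 5 mM K+ and 13 in 60 mM K+, and the lower end of its counting interval was 1.71 on the log2 scale. Kcp was lower with 16 and 4 reads; Nog and Kcp were singled out after their values were seen. The list had a median of -0.07.

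Of the 6 receptor-regulated and common Smads, 1 was higher past the fold and 0 lower. Among all genes with at least 10 reads, 5.54% were called higher and 5.86% lower. Counting intervals of the 6 Smads lay above 0 for 2 and below 0 for 0, beside 25.0% and 20.3% of all such genes. Smad3, a mediator of TGF-β and activin signals, had 320 and 620 reads, a log2(fold-change) of 1.06 (0.86 to 1.25) that was 0.85, short of the fold, with total-count scaling. Smad4 had 720 and 729 reads (0.12, -0.03 to 0.27) and Smad5 had 682 and 585 reads (-0.12, -0.28 to 0.04). Of the other BMP Smads, named after their values were seen, Smad1 had 313 and 395 reads (0.44, 0.22 to 0.66) and Smad9 had 150 and 119 reads (-0.23, -0.59 to 0.12). Of 9 ubiquitin ligases and corepressors of Smads, 1 was higher past the fold and 0 lower, beside the same 5.54% and 5.86%. This was Tgif1, a corepressor, with 193 and 559 reads (1.64, 1.40 to 1.88). Ski (3219 and 3454 reads, 0.20), Skil (2214 and 2718 reads, 0.40) and Pmepa1 (2126 and 2644 reads, 0.42) had the most reads, and the median of these 9 genes was 0.34.

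Target genes outside the members were followed in separate lists for BMP and for TGF-β or activin. Of 12 other BMP target genes 9 had at least 10 reads, with a median log2(fold-change) of 0.47. That median was 0.27 with total-count scaling. Intervals with TMM scaling lay above 0 for 7 and below 0 for 1, beside 25.0% and 20.3% of all genes with at least 10 reads. These shares are not of genes at like depth. Atoh8, a bHLH gene downstream of Acvrl1 in endothelium, had 1206 and 1682 reads (0.58, 0.47 to 0.69), Hes1 had 2298 and 2559 reads (0.26) and Hey2 had 1942 and 2008 reads (0.15). With total-count scaling Atoh8 was at 0.37, Hes1 at 0.05 and Hey2 at -0.06. None of the 9 was past the fold in the higher direction, and 1, Runx2, was lower with 10 and 1 reads, named after its values were seen. Among all genes with at least 10 reads, 5.54% were called higher and 5.86% lower. Of 10 TGF-β or activin target genes, 1 was higher past the fold and 0 lower, beside the same 5.54% and 5.86%. This was Snai1, with 33 and 155 reads (2.33, 1.78 to 2.92). Acta2 (187183 and 199779 reads, 0.20), Col1a1 (17966 and 15839 reads, -0.08) and Cyr61 (16907 and 15722 reads, -0.0034) had the most reads, and the median of the list was 0.10.

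The bHLH genes listed as partners of Id proteins were measured at lower levels than Id1, Id2 and Id3. The list mixes E proteins with other bHLH factors, and binding by Id proteins was not checked for each. Tcf4 at 47.6 and 36.0 FPKM and Tcf12 at 45.2 and 35.8 FPKM encode E proteins, and Hand2 was at 27.2 and 24.0 FPKM. Their log2(fold-change) values were -0.19 (-0.34 to -0.05), -0.13 (-0.25 to -0.0049) and 0.02 (-0.13 to 0.18). Tcf3, a further E protein gene named after its values were seen, was at 19.6 and 16.7 FPKM (-0.02, -0.22 to 0.17). Twist2 was past the fold in the lower direction with 37 and 13 reads (-1.41, -2.44 to -0.46). Of the 11 genes 9 had at least 10 reads, and their median was -0.02. Over all these pathway lists together, 90 of 114 genes had at least 10 reads, of which 8 were called higher and 5 lower, with a median of 0.10. Among all genes with at least 10 reads, 5.54% were called higher and 5.86% lower.

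**Figure D5:**
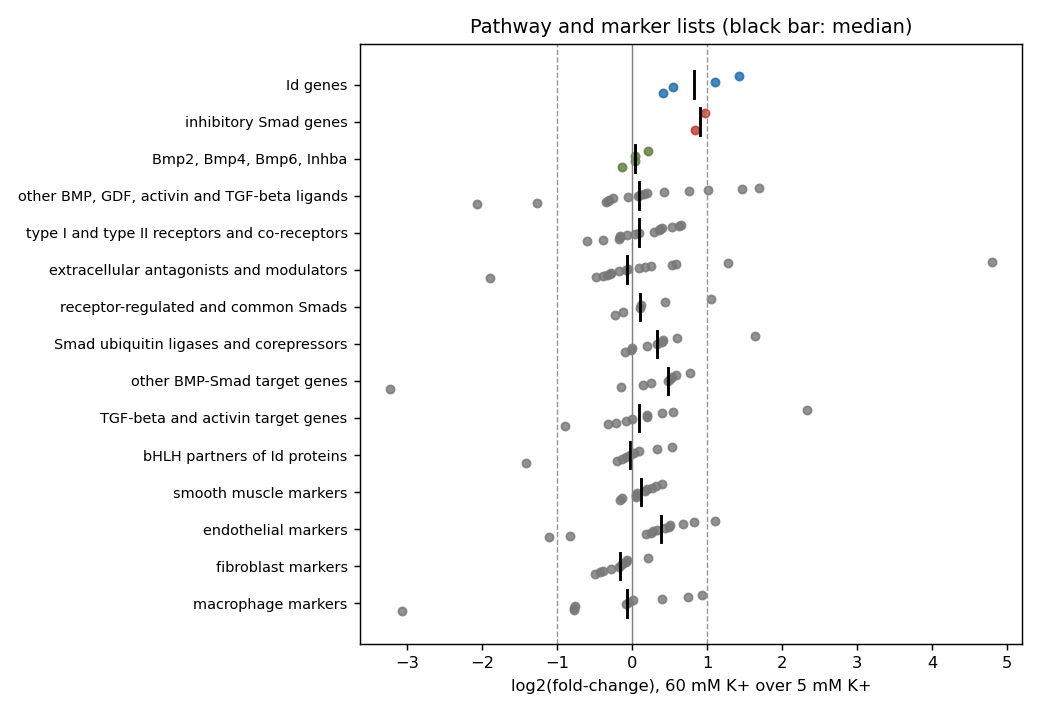
Each point is the log2(fold-change) of 1 gene with at least 10 reads, by list, with the median of each list as a black bar and dashed lines at 2-fold. Medians are 0.82 for Id genes, 0.91 for inhibitory Smads and 0.04 for Bmp2, Bmp4, Bmp6 and Inhba, and 0.39 for endothelial markers; a library with 0 reads was given 0.5 reads.

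With TMM scaling most markers of endothelium, in which Id1, Id3, Smad6 and Smad7 are known to be expressed, were higher in 60 mM K+ as well. All 12 markers had at least 10 reads, and 0 of 12 were at 0. Intervals lay above 0 for 10 and below 0 for 1, beside 25.0% and 20.3% of all genes with at least 10 reads, which are not of like depth. Their summed reads were 42280 and 54335, a log2(fold-change) of 0.46 (0.44 to 0.48), and their median was 0.39. Most of the sum came from Pecam1 (19497 and 25719 reads) and Vwf (10480 and 11820 reads). With total-count scaling Pecam1 was at 0.29, Vwf at 0.07, Egfl7 at -0.02 and Kdr at -1.31. The most abundant, Pecam1, was at 752 and 921 FPKM. Nos3, with 1013 and 2025 reads (1.10), was past the fold in the higher direction, and Kdr, with 168 and 73 reads (-1.10), in the lower. Among all genes with at least 10 reads, 5.54% were called higher and 5.86% lower. Nos3 and Kdr were chosen after their values were seen. In whole tissue, fewer cells of a type and less RNA per cell cannot be told apart. Taken relative to the summed endothelial reads, log2(fold-change) was 0.96 for Id3, 0.64 for Id1, 0.51 for Smad7, 0.37 for Smad6, 0.08 for Id4 and -0.05 for Id2, and it lay between -0.60 for Bmp2 and -0.25 for Bmp4 among the ligands. Single endothelial markers ranged from -1.10 to 1.10, so values relative to another endothelial reference would differ. The paper reports comparable induction by qPCR after removal of the endothelium, and its list of qPCR primers holds no member. The part of endothelial RNA in the members' differences was not tested beyond these values.

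For most of the other cell types the marker with the highest FPKM summed over both libraries is named. Smooth muscle markers, which define the tissue, were present in both libraries with 0 of 10 at 0, led by Acta2 at 12480 and 12366 FPKM, and their summed log2(fold-change) was 0.13. Tagln had only 314 and 387 reads; in the mm9 annotation it overlaps Pcsk7, and its count is uncertain. Of 10 fibroblast markers, led by Col3a1, 9 had intervals below 0, beside 20.3% of all genes with at least 10 reads. None was at 0, and their summed reads were 112315 and 89012 (-0.23). The 10 macrophage markers, led by C1qa (Lyz2 was higher in 5 mM K+) with 0 at 0, summed to 597 and 531 reads. Adipocyte markers, led by Cfd (Fabp4 was higher in 60 mM K+) with 0 of 7 at 0, summed to 2014 and 1370 reads (-0.45), and red blood cell markers, led by Hbb-b1 with Slc4a1 at 0, to 908 and 538 reads (-0.65). Pancreas markers, led by Cpb1 (Ctrb1 was higher in 60 mM K+) with Prss1 and Amy2a5 at 0, summed to 134 and 430 reads (1.78). Neural and glial markers, with Th and Elavl4 at 0, summed to 1238 and 1061 reads. Mesothelial markers, with Msln, Upk3b, Upk1b and Lrrn4 at 0 and Wt1 highest, summed to 4 and 6 reads, and lymphocyte markers, with Cd3g at 0 and Cd79a highest, to 9 and 9 reads. The part of these cell types in the members' values was not tested.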

How the data were processed

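Libraries of mouse mesenteric artery were analysed, 1 for 5 mM K+ and 1 for 60 mM K+. The authors prepared poly(A) RNA libraries, used TopHat2 against mm9 and deposited the read count of each gene; the submitters' processing notes name TopHat2 2.0.12, HTSeq 0.6.1 and edgeR 3.0.8, and mm8 beside mm9. The authors also deposited FPKM values. Reads divided by FPKM gave a constant ratio between libraries, 1.08, equal to that of the total reads. Symbols (32601 identifiers matched) and mm9 positions came from GENCODE vM1, which lacks 41.3% of the listed identifiers; the annotation the authors counted on is not given in the sources used here.

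Scaling factors (TMM) were made here with edgeR 4.0.16 (R 4.3.3). Counting intervals were 95% Clopper-Pearson intervals of the share of a gene's reads in the 60 mM K+ library. Poisson intervals were used for single levels, and a normal approximation on the log ratio for differences between genes. A count of 0 was set to 0.5. PCR copies are not independent molecules, so intervals cover counting error only. Without replicates no quasi-likelihood fit and no test of the conditions was made. Genes entered with at least 10 reads over both libraries. The step was tested on simulated counts with known fold changes and counting error only. That test cannot speak to variation between animals or preparations.

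The members and gene lists were chosen with earlier results of these data known. Named genes were the 10 members and, from each pathway list, the 3 genes with most reads and those past the fold with at least 50 reads; from marker lists, the gene with the highest FPKM summed over both libraries and markers at 0. Some genes that this rule names are not reported here. No gene was named for a pattern like that of a member, since 2 libraries cannot rank such likeness. Alternatives were scaling by median of ratios (DESeq2 1.42.0), upper quartile or total counts, other minimum reads, FPKM with pseudocounts of 0.1 and 1, a fold of 1.5 and a fold judged on the interval. Figures were drawn with matplotlib 3.10.9.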

Additional observations from a re-analysis of the deposited data

How the results depend on the processing

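No paired analysis was possible because there is a single library for each K+ level, and leaving out a library leaves no comparison. Median-of-ratios and upper-quartile scaling kept every median within the median counting interval of its genes and every number of calls in the report within 1.5 times; 2 ligand genes near 0, Bmp6 at -0.0074 and Inhba at -0.0038, changed sign with upper-quartile scaling. Total-count scaling lowers each log2(fold-change) by 0.21 by construction. Medians became 0.61 for Id genes, 0.70 for inhibitory Smads, -0.17 for the 4 ligand genes, 0.27 for all 10 members, -0.12 for receptors, -0.27 for antagonists, -0.10 for other Smads, 0.13 for Smad ligases and corepressors, 0.27 for BMP targets and -0.11 for TGF-β targets. With FPKM and a pseudocount of 0.1 they were 0.61, 0.70, -0.17, 0.27, -0.12, -0.27, -0.10, 0.13, 0.26 and -0.11 in the same order, and with a pseudocount of 1 they were 0.60, 0.69, -0.17, 0.26, -0.11, -0.25, -0.093, 0.13, 0.26 and -0.11. Of the members, 1 (Id3) was higher past the fold under these 3 settings. Pathway genes past the fold in the higher direction numbered 5 and 3 with FPKM (pseudocounts 0.1 and 1), and 0 were lower with a pseudocount of 1; among all genes 497 were higher and 1037 lower with a pseudocount of 0.1, and 240 higher and 193 lower with a pseudocount of 1, compared with 822 and 869, or with 601 and 1285 for total-count scaling. With a fold of 1.5, 4 members, 13 pathway genes and 1761 of all genes were higher and 1939 of all genes lower. Judged on the nearest interval end, Id1 and Id3 still passed, with 4 pathway genes and 263 of all genes higher, and 0 and 73 lower. A minimum of 50 reads left 5 pathway genes higher and 2 lower, and 412 and 211 of all genes; with no minimum the numbers over all genes were 3081 and 2491. Relative to the summed endothelial marker reads, a setting chosen after seeing the data, medians were 0.36 for Id genes, 0.44 for inhibitory Smads and -0.43 for the ligands; relative to smooth muscle markers, also chosen then, they were 0.69, 0.77 and -0.094. The number of calls depended on the minimum reads and the fold by construction. Differences between members do not depend on library scaling.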
